A study of Aspergillus luchuensis with 6 samples.

Results

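The strongest transcription start clusters of the mycelium of Aspergillus luchuensis mut. kawachii were the 513 clusters with at least 300 CPM, out of 24707 clusters with at least 1 CPM on the scaffolds used. CPM scales a cluster's tags to a total of 1000000 tags on these scaffolds. The tags are the first bases of capped RNAs, read by cap analysis of gene expression (CAGE), and the position of a tag is where its RNA began. Positions with at least 0.1 CPM over all libraries were joined into a cluster where gaps on the same strand were 20 bp or less, and the level of a cluster was the sum of its tags. The members were thus chosen on their level pooled over both genotypes, and their high levels are a description, not a finding. The libraries were 3 of a laeA disruptant (genotype label for a deleted laeA, strain label sirD) and 3 of a control strain (strain label ctrl345). All were mycelia grown with shaking at 30 °C, for 36 h in M medium and then for 12 h in CAP medium. The labels do not say whether the strains share a parent, or whether replicates were grown apart, so p-values measure the spread between these libraries, which may be technical. The files pair no scaffold position with a gene, so clusters are named by scaffold and position, and the level of laeA itself and marker genes of the mycelium were not analysed here. That each cluster is the promoter of a messenger RNA was therefore not checked either.

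LaeA is known in aspergilli as a nuclear, putative methyltransferase that acts as a global regulator of secondary metabolism and development. A. luchuensis mut. kawachii is the white koji fungus, used in shochu making for its starch-degrading enzymes and its citric acid. In growing fungal mycelium, the strongest promoters are known to include those of genes for protein synthesis and central carbon metabolism. Promoters are also known to differ in shape: some start nearly all RNAs at a single base, others spread their starts over a wide stretch.

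The scaffolds used held 14.9, 11.5 and 11.2 M tags in disruptant libraries 1, 2 and 3 and 15.2, 16.1 and 12.9 M in control libraries 1, 2 and 3. Scaffold DF126582.1, which was left out, took 7.49 to 17.3% of all tags in the disruptant libraries and 9.42 to 17.2% in the controls. Some libraries deviated from their genotype together. Over the 513 strong clusters, deviations from the genotype mean of log2 CPM correlated at 0.83 between disruptant 2 and control 3. They correlated at -0.77 between disruptant 1 and control 3. These coefficients are across clusters, and deviations within a group of 3 sum to 0, so they are a description only. Disruptant 2 was the library farthest from its genotype's mean in 317 strong clusters, and control 3 in 302. The labels name no batch. Counts of changed clusters are therefore also given without both of these libraries, an alternative chosen after the values were seen.

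The strong clusters are 2.08% of the clusters with at least 1 CPM, and they held 41932515 of 81759465 tags, or 51.3%. Their levels fell off steeply. The highest reached 13168 CPM pooled, the median was 615 CPM and the quartiles were 404 and 1024 CPM. Of the 513, 134 had at least 1000 CPM and 51 at least 2000 CPM. In disruptant libraries 1, 2 and 3 the strong clusters took 51.5, 49.8 and 51% of tags, against 51.8, 51.8 and 51.4% in controls 1, 2 and 3. Their 95% Wilson intervals, which cover counting error only, reach at most 0.0293 percentage points to either side. The means were 50.7 ± 0.894% in the disruptant and 51.7 ± 0.211% in the control (SD, n = 3 each). Their difference, -0.933 percentage points, did not pass an exact two-sided permutation test (p = 0.2), which cannot go below 0.1 with 3 libraries against 3. Disruptant 1 lay above control 3, so the genotypes overlapped. With the bound at 200 or at 500 CPM they did not: the difference was -0.894 and -1.35 percentage points, both at the smallest p possible (exact two-sided permutation p = 0.1).

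The highest level belonged to the plus-strand cluster DF126469.1:159689-159962, which had 17732, 12782 and 19494 CPM in disruptant libraries 1, 2 and 3 and 10480.4, 11479.8 and 8007 CPM in controls 1, 2 and 3. Every disruptant library lay above every control, yet the log2 fold change of 0.67 (SE 0.25) was not called (edgeR quasi-likelihood test, adjusted p = 0.135). The minus-strand cluster DF126487.1:79688-80155, with 15099, 13225 and 15801 CPM in the disruptant and 7597, 6646 and 6792 CPM in the control libraries, was the only one of the 10 strongest that was called. It averaged 14708 ± 1332 CPM in the disruptant and 7012 ± 512 CPM in the control (SD, n = 3 each), a log2 fold change of 1.00 (SE 0.19; edgeR adjusted p = 0.0133). The call is lost without disruptant 3 (edgeR adjusted p = 0.0811), the highest of its alternatives, and also without control 1 or control 2; the range over alternatives is 9.08e-05 to 0.0811. Both clusters were the 2 strongest in each disruptant library. In the controls, DF126469.1:159689-159962 ranked 1, 1 and 2, and DF126487.1:79688-80155 ranked 5, 8 and 5 in controls 1, 2 and 3.

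The third, DF126448.1:304474-304950 (plus), had 8153, 8086 and 9409 CPM in the disruptant and 10174, 7975 and 10307 CPM in the control libraries, so the genotypes overlapped. Cluster DF126484.1:162218-162383 (minus) followed with 7143 ± 951 CPM in the disruptant and 7951 ± 1273 CPM in the control (SD, n = 3 each). Next, DF126468.1:50744-50854 (plus) averaged 5886 ± 1903 CPM in the disruptant and 7420.3 ± 1620.3 CPM in the control, and DF126460.1:785237-785596 (minus) 6170.2 ± 1532 CPM in the disruptant and 6747 ± 1215 CPM in the control. Clusters DF126449.1:674701-674898 (minus), DF126452.1:347600-347811 (plus), DF126472.1:383081-383677 (minus) and DF126460.1:773203-773389 (plus) completed the 10 strongest, with pooled levels of 6045, 5999, 5760.4 and 5529.7 CPM. These last 8 were not called, with log2 fold changes between -0.40 and 0.11. No more than 4 clusters were among the 10 strongest of every library. The 10 together took 8.54, 6.99 and 8.81% of tags in disruptant libraries 1, 2 and 3 and 7.60, 7.64 and 6.68% in controls 1, 2 and 3, and the genotypes overlapped (exact two-sided permutation p = 0.3).

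**Figure D1:**
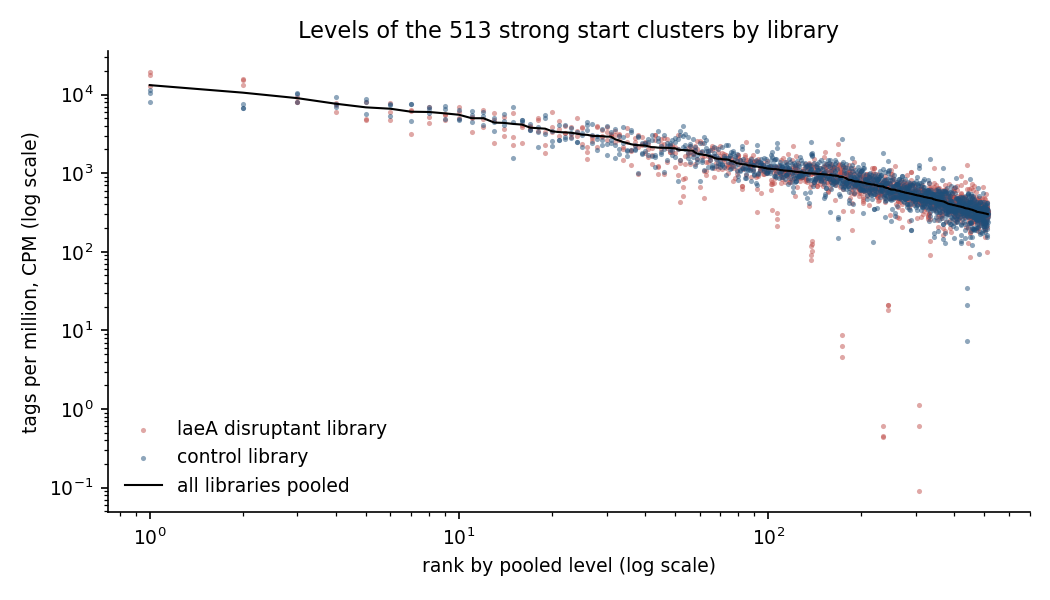
Level of each of the 513 strong clusters (CPM, log scale) against its rank by pooled level (log scale), with 1 point per library and a line for all libraries pooled. Most points follow the line, while a few clusters drop far below it in the disruptant libraries, and 1 does so in the control libraries.

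The bound of 300 CPM cuts through a continuum. The last members, DF126469.1:161423-161528 (minus), DF126457.1:549749-549933 (plus) and DF126452.1:219094-219173 (minus), had 302, 300.5 and 300.4 CPM pooled. The first clusters below it, DF126448.1:292658-292772, DF126463.1:681623-681742 and DF126467.1:326570-326614 (all minus), had 299.7, 298 and 297 CPM. In every library at once, 366 of the 513 reached 300 CPM. The mean was under 300 CPM in the disruptant for 30 members and in the control for 39, so these are members through the other genotype. Pooling also weights the genotypes by depth: the disruptant gave 37.6 M and the control 44.2 M of the pooled tags. Choosing on the mean of the 6 CPM values, an alternative added after seeing the data, gave 515 clusters, 511 of them among the 513.

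Strong clusters spread their starts over a somewhat wider stretch than clusters in general. The span that holds the central 80% of a cluster's pooled tags had a median of 36 bp, with quartiles of 20 and 68 bp, beside 27 bp over all clusters of at least 1 CPM. The position with most tags, the main start, held a median of 25.4% of a strong cluster's tags, beside 26.8% over all clusters. Spans of over 200 bp occurred in 20 strong clusters (3.90%), beside 0.453% of all. By level, the median span was 22 bp at 1 to 10 CPM, 43 bp at 10 to 100 CPM, 46 bp at 100 to 300 CPM, 39 bp at 300 to 1000 CPM and 26 bp at 1000 CPM or more. It was thus widest at middling levels, and the strongest clusters were again narrow; the part of depth in this was not tested. Averaged over the 513 clusters, 62.9% of the tags within 100 bp of the main start lay within 10 bp of it, and 92.3% within 50 bp. The downstream side held 37.4% and the upstream side 31.1%.

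**Figure D2:**
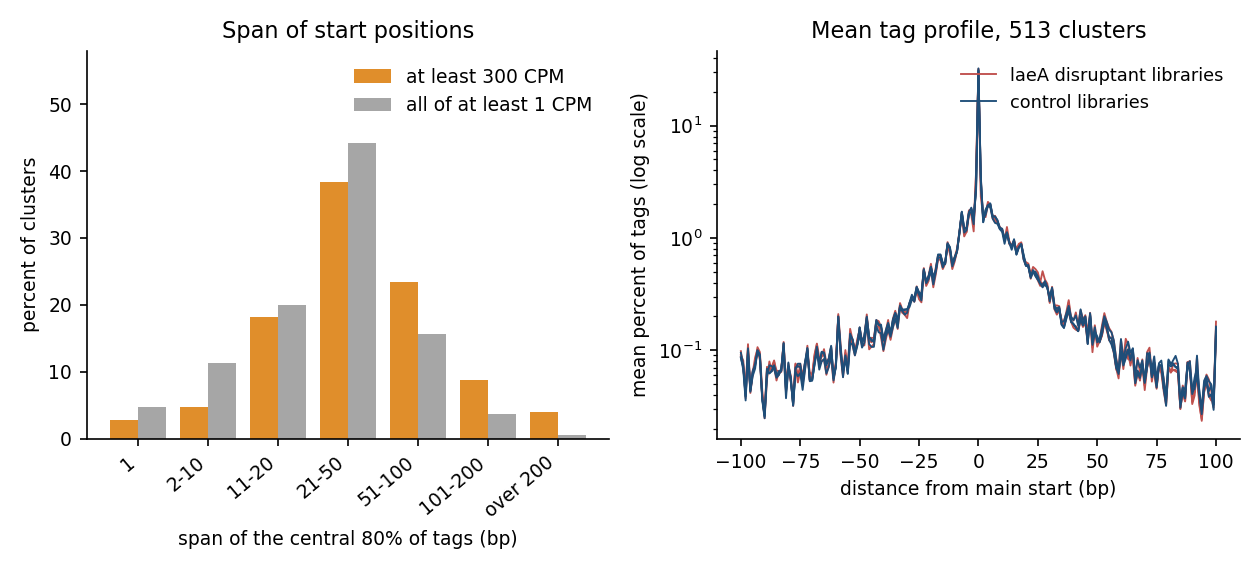
Left, percent of clusters by the span of the central 80% of tags (bp), for the strong clusters and for all clusters of at least 1 CPM. Right, mean percent of tags (log scale) at each distance from the main start (bp) over the 513 strong clusters, with 1 line per library; the 6 lines nearly coincide, and strong clusters hold larger percentages than all clusters in the classes over 50 bp.

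At the narrow end, 13 strong clusters (2.53%, beside 4.03% of all clusters) had at least 95% of their tags at a single base. They were 6 to 101 bp long and reached 321 to 3302 CPM. The narrowest by span, with a single base each, included DF126468.1:50744-50854 (plus), the fifth strongest of all, which had 89% there. The strongest of those with 95% or more, DF126464.1:456218-456240 (plus), had 99.3% of its tags at position 456220, with 3206, 4003 and 3244 CPM in the disruptant and 2898, 2704 and 4067 CPM in the control libraries. Cluster DF126459.1:316613-316619 (minus) had 99.5% at position 316618, with 3374, 3837 and 2674 CPM in the disruptant and 2361, 1680.1 and 3973 CPM in the control libraries. Genotypes overlapped in both clusters whose library values are given. None of the 13 was called (log2 fold changes -0.25 to 0.24), beside 8.00% of all tested clusters, and 13 are too few to set against that share. Control 3 was the highest control in 11 of the 13, and in 255 of all 513 strong clusters.

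At the wide end, DF126461.1:472012-472899 (minus) spread the central 80% of its tags over 535 bp, and its main start held 8.27%. It averaged 946 ± 243 CPM in the disruptant and 1099 ± 289.8 CPM in the control (SD, n = 3 each). The next widest were DF126490.1:120208-120831 (plus) with 353 bp and DF126464.1:387252-387862 (plus) with 339 bp. In DF126490.1:120208-120831 the main start lay at position 120636 in disruptants 1 and 3 and at 120823 in disruptant 2, while controls 1 and 2 had 120636 and control 3 had 120823. Disruptant 2 and control 3 thus parted from the other libraries here as they did in level.

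Strong clusters lay on 57 of the 118 scaffolds with a cluster, 279 on the minus and 234 on the plus strand. Scaffold DF126448.1 carried most, 35, followed by DF126447.1 with 28 and DF126459.1 with 25. Downstream of its main start, on the same strand and within 1000 bp, a strong cluster had another cluster of at least 1 CPM in 481 of 513 cases (93.8%), beside 56.3% of all clusters. Upstream within that distance, the shares were 41.3% of the strong and 56.3% of all clusters. A cluster starting in the opposite direction within 1000 bp upstream, which makes a divergent arrangement, stood beside 273 strong clusters (53.2%) and 43.3% of all. The strongest such neighbour had a median level of 9.26 CPM, and 222 of the 273 strong clusters were at least 10 times stronger than theirs. Clusters on the opposite strand within 1000 bp downstream were found for 6.82% of the strong clusters and 13.4% of all. The bound of 1 CPM for a neighbour was fixed, not scaled to a cluster's own level. The part of level in these shares was not tested. The tags downstream are given next as a percent of a cluster's own tags. That percent is divided by the level on which members were chosen, so it cannot compare strong with weaker clusters.

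Tags scattered downstream of the strong clusters differed between libraries. The 1000 bp beyond a strong cluster's downstream edge held, on its strand, a median of 3.62, 2.52 and 3.16% as many tags as the cluster in disruptants 1, 2 and 3, and 4.96, 6.41 and 3.47% in controls 1, 2 and 3. Controls 1 and 2 were the highest of the 6, while disruptant 1 lay above control 3, so the genotypes overlapped. In 6835 weaker clusters, each with 100 tags or more per library, the medians were 12.7, 11 and 12.3% in the disruptant and 16.1, 18.2 and 13.9% in the control libraries, and every disruptant library lay below every control.

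To see which strong clusters changed in the laeA disruptant, levels were compared between the disruptant and the control over all 24644 tested clusters. Of the 513 strong clusters, 42 were called, or 8.19%, beside 8.00% of all tested clusters, with a call at an adjusted p under 0.05 (edgeR quasi-likelihood test, adjusted after Benjamini and Hochberg). That share is close to the background, but it includes members that reached 300 CPM on average in 1 genotype only. The disruptant was higher in 19 strong clusters (3.70%, beside 3.87% of all) and lower in 23 (4.48%, beside 4.13%). The directions were uneven by level. Of 317 members at 500 CPM or more, 29 were called (9.15%, beside 8.00% of all tested clusters), 8 higher and 21 lower. Of all tested clusters, 3.87% were called higher and 4.13% lower. Of 196 members at 300 to 500 CPM, 13 were called, 11 higher and 2 lower, and 10 of these 11 had a control mean under 300 CPM. Whether direction depends on level was not tested. A call with a log2 fold change of 1 or more in size was made for 28 strong clusters (5.46%, beside 7.38% of all), 10 upward and 18 downward. By level, such calls were 7.80% at 1 to 10 CPM and 6.74% at 10 to 100 CPM. They were 5.47% at 100 to 300 CPM, 5.01% at 300 to 1000 CPM and 6.72% at 1000 CPM or more. The median log2 fold change was -0.12 over the strong and -0.03 over all tested clusters. Libraries of the genotypes did not overlap in 121 strong clusters (23.6%, beside 28.9% of all). In bulk mycelium, fewer cells using a start site and less use per cell cannot be told apart.

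The count of called strong clusters, 42, depended on single libraries. It was 34 without disruptant 1 (6.63%, beside 6.27% of all tested clusters), 26 without disruptant 2 (5.07%, beside 4.23%) and 18 without disruptant 3 (3.51%, beside 3.26%). It was 23 without control 1 (4.48%, beside 4.0%) and 27 without control 2 (5.26%, beside 4.24%). Without control 3 it rose to 54 (10.5%), below the 11.1% of all tested clusters in that fit. Without both disruptant 2 and control 3 it was 67, or 13.1%, above the 9.47% of all tested clusters (2338) in that fit; whether these shares differ was not tested. In each of the 6 fits that left out 1 library, 18 strong clusters were called every time, 6 higher and 12 lower in the disruptant. They are all the strong clusters called without disruptant 3 (3.51%, beside 3.26% of all tested clusters). How many of all tested clusters were called every time was not counted. The choice of members also bears on the count: 21 of the 42 reach 300 CPM on average in 1 genotype only, and so entered through the genotype in which they are high. They are among 69 such members. The other 21 are among the 444 members with both means at least 300 CPM (4.73%). That bound itself leaves out clusters that rise or fall across 300 CPM, so this share has no matching background.

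**Figure D3:**
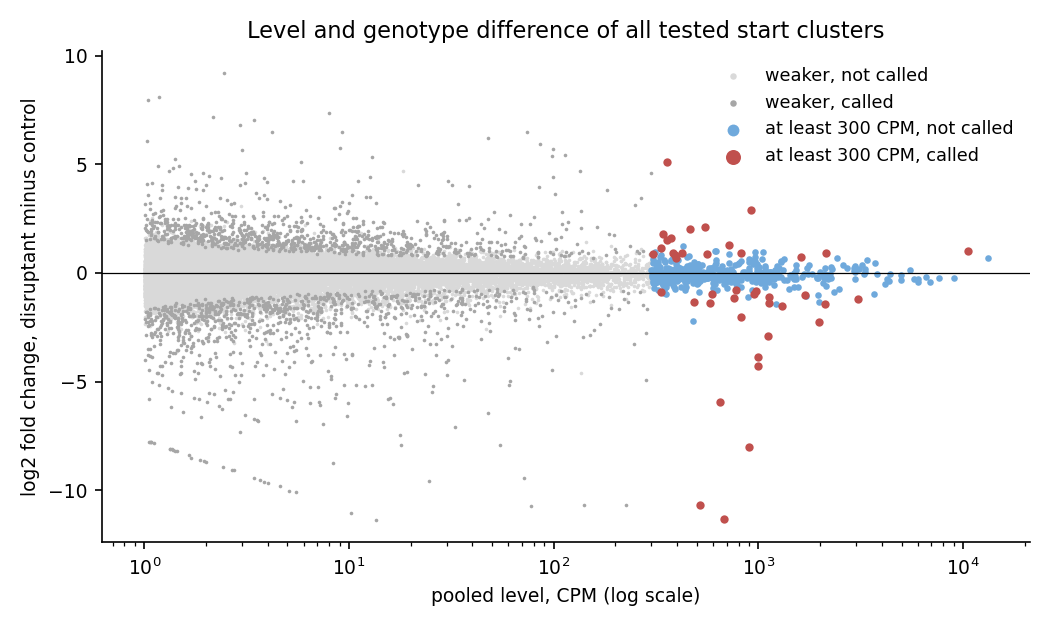
Log2 fold change (disruptant minus control) of each tested cluster against its pooled level (CPM, log scale), with strong clusters and called clusters marked. The 42 called strong clusters include 6 with falls of over 3 on the log2 scale and 1 with a rise of over 3.

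The largest falls were near-complete losses. Cluster DF126461.1:697183-697407 (plus) had 0.603, 0.435 and 0.447 CPM in the disruptant libraries, from 9, 5 and 5 tags, and 763, 1809 and 1139.9 CPM in the controls. Its mean was 0.495 ± 0.0932 CPM in the disruptant and 1237 ± 529 CPM in the control (SD, n = 3 each), a log2 fold change of -11.31 (SE 0.50; edgeR adjusted p = 1.63e-05). On the same strand 9927 bp away by their main starts, DF126461.1:707121-707287 had 0.603, 1.13 and 0.0895 CPM in the disruptant, from 9, 13 and 1 tags, and 482, 1156 and 1266 CPM in the control libraries. Its log2 fold change was -10.68 (SE 0.69; edgeR adjusted p = 9.47e-05). The genotypes lay far apart in both clusters, and the size of each fold rests on few disruptant tags.

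Scaffold DF126486.1 carried the next pair. Cluster DF126486.1:91006-91277 (plus) had 8.64, 4.62 and 6.35 CPM in the disruptant and 1301, 2707 and 747 CPM in the control libraries, and control 2 was more than 3 times control 3. Its log2 fold change was -7.99 (SE 0.60; edgeR adjusted p = 0.000203). The minus-strand cluster DF126486.1:71954-72156, 19026 bp from it, had 20.8, 18 and 21 CPM in the disruptant and 1069, 1412 and 1014 CPM in the control libraries. It averaged 20 ± 1.67 CPM in the disruptant and 1165 ± 216 CPM in the control (SD, n = 3 each; log2 fold change -5.94, SE 0.26, edgeR adjusted p = 1.63e-05). Partial losses came next. Cluster DF126450.1:715118-715206 (plus) averaged 96.7 ± 19.6 CPM in the disruptant and 1805 ± 675 CPM in the control, a log2 fold change of -4.29. Cluster DF126459.1:190794-191131 (minus) averaged 122 ± 18.6 CPM in the disruptant and 1724 ± 86.6 CPM in the control, a log2 fold change of -3.89, with SEs of 0.32 and 0.22 for these clusters (edgeR adjusted p = 0.000176 and 3.94e-05, SD, n = 3 each). All 6 kept their call in every alternative that gave a value. Their disruptant means were all under 300 CPM, so each is a member through the control libraries.

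The largest rise was in a cluster with little use in the control. Cluster DF126470.1:130585-130744 (minus) had 446, 1256 and 632 CPM in disruptants 1, 2 and 3 and 7.31, 34.9 and 21.1 CPM in controls 1, 2 and 3, a log2 fold change of 5.11 (SE 0.63; edgeR adjusted p = 0.00166). Disruptant 2 was 2.81 times disruptant 1 in it, and control 2 was 4.78 times control 1. Without disruptant 2 and control 3 it stayed just under the threshold (edgeR adjusted p = 0.0474), and its alternatives spanned 1.8e-22 to this value. Cluster DF126451.1:432049-432261 (minus), with 1269.6, 2342 and 1737 CPM in the disruptant and 148, 264 and 274 CPM in the control libraries, rose by a log2 fold change of 2.89 (SE 0.31; edgeR adjusted p = 0.000868). In DF126468.1:134923-135379 (plus) the disruptant libraries lay close together at 809, 1048 and 1020.4 CPM, as did the controls at 189, 189.6 and 252 CPM (log2 fold change 2.12, SE 0.21; edgeR adjusted p = 0.000512).

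Smaller rises had log2 fold changes of 2.00 in DF126449.1:801965-802084 (minus), 1.78 in DF126465.1:39146-39537 (minus) and 1.60 in DF126538.1:11782-11846 (plus), with edgeR adjusted p = 0.00471, 0.00259 and 0.0189. In DF126449.1:801965-802084 the means were 813 ± 322 CPM in the disruptant and 193 ± 53.9 CPM in the control (SD, n = 3 each). Cluster DF126538.1:11782-11846 had 383, 908 and 551 CPM in the disruptant and 224, 131 and 222 CPM in the control libraries, and disruptant 2 was the highest. Its call is lost without disruptant 3 (0.0683), without control 1 (0.0564) and without control 2 (0.0654), all edgeR adjusted p; its alternatives range from 0.000111 to 0.0694. All 6 rising clusters had a control mean under 300 CPM, so each is a member through the disruptant libraries.

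**Figure D4:**
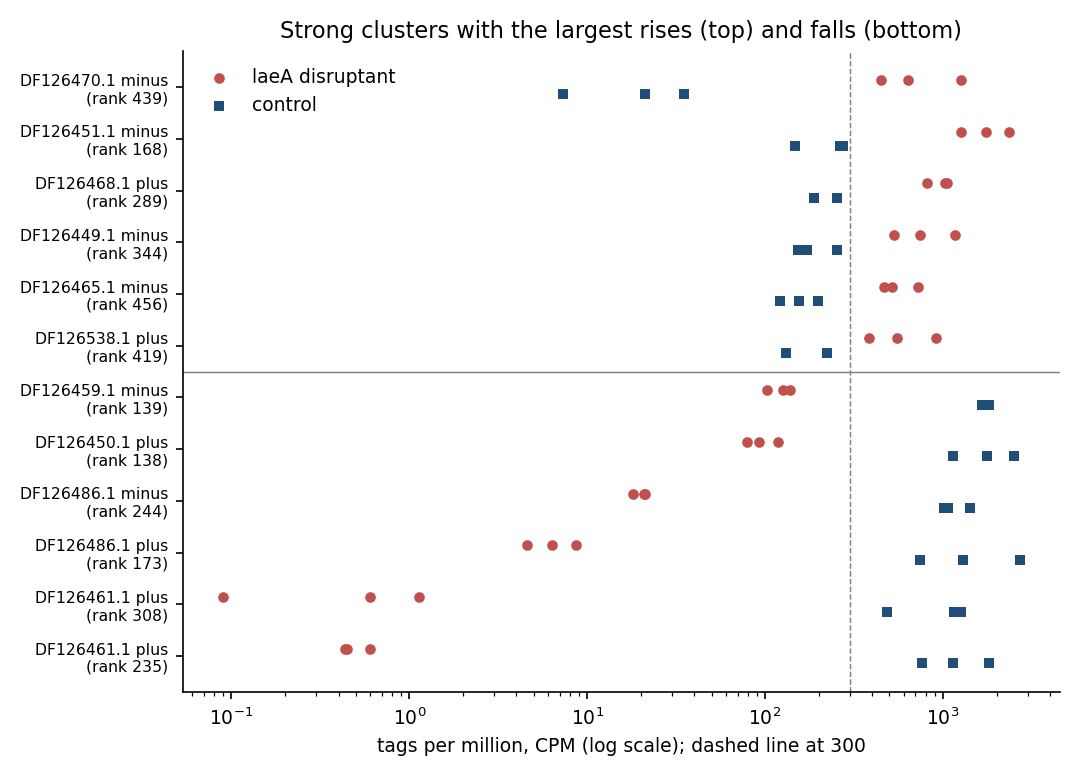
Level in each library (CPM, log scale) of the 6 strong clusters with the largest rises, above the line, and the 6 with the largest falls, below it. Within a cluster, disruptant points are drawn above control points; the genotypes do not overlap in any of the 12, and both DF126461.1 clusters are near 1 CPM or below in the disruptant.

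Beyond these 12, the other 30 called strong clusters had log2 fold changes between -2.92 and 1.53. Besides DF126487.1:79688-80155, the 4 strongest of them are given next, chosen after their values were seen. Cluster DF126452.1:1306562-1306841 (plus) had 2180.2, 1876 and 1533 CPM in the disruptant and 4129.9, 4433 and 3545 CPM in the control libraries, a log2 fold change of -1.19 (SE 0.21; edgeR adjusted p = 0.0103). In DF126476.1:168048-168173 (minus) the disruptant libraries had 2669, 3086 and 3028 CPM and the controls 1621, 1187 and 1684 CPM, a log2 fold change of 0.90. Cluster DF126449.1:26149-26300 (minus) had 983, 1207 and 1238 CPM in the disruptant and 3469, 2593 and 2779.8 CPM in the control libraries, a log2 fold change of -1.44. Unlike DF126452.1:1306562-1306841 and DF126476.1:168048-168173, it was called in every fit that left out 1 library. The last of them, DF126459.1:191726-191971 (plus), belongs to a divergent pair and is described with it. The strong clusters were measured with a median SE of 0.22 on the log2 scale, against 0.34 over all tested clusters. By level, the median SE was 0.38 at 1 to 10 CPM, 0.24 at 10 to 100 CPM and 0.22 at 100 to 300 CPM. A low SE was thus not particular to the strong clusters. For 363 of the 471 that were not called, the 95% interval of the log2 fold change lay wholly between -1 and 1. For the other 108, the interval reached past 1 in size. The 363 are 70.8% of the strong clusters, beside 35.6% of all tested clusters with such an interval.

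Some called strong clusters had another called strong cluster within 50000 bp, in 6 pairs. They are given as a description, with no comparison to other clusters. The closest pair was divergent: DF126459.1:190794-191131 (minus), given above, and DF126459.1:191726-191971 (plus), with main starts 882 bp apart. That plus-strand cluster had 673, 833 and 515 CPM in the disruptant and 2172, 4027 and 2939 CPM in the control libraries (log2 fold change -2.25, SE 0.29; edgeR adjusted p = 0.00185), so that both sides of the pair fell. Another divergent pair, 1009 bp apart, rose on both sides. Cluster DF126465.1:39146-39537 (minus) had 468, 728 and 514 CPM in the disruptant and 156, 122 and 199 CPM in the control libraries, and DF126465.1:40302-40465 (plus) 1264, 981 and 1076 CPM in the disruptant and 569, 656 and 455 CPM in the control libraries, with log2 fold changes of 1.78 and 0.91. The pair on DF126476.1 moved in opposite directions: DF126476.1:131372-131676 (plus) fell (log2 fold change -2.92) and DF126476.1:168048-168173 (minus), 36574 bp away, rose (log2 fold change 0.90).

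In all, 18 pairs of strong clusters were divergent with main starts at most 2000 bp apart. The closest, DF126451.1:284040-284125 (minus) and DF126451.1:284231-284294 (plus), were 188 bp apart. The minus side averaged 580.3 ± 133 CPM in the disruptant and 593 ± 151 CPM in the control, and the plus side 388 ± 94.4 CPM in the disruptant and 379 ± 113 CPM in the control (SD, n = 3 each). Genotypes overlapped on both sides. The next, 435 bp apart, were DF126454.1:11870-11955 (minus) and DF126454.1:12288-12405 (plus), with 1464 and 2915 CPM pooled and log2 fold changes of -0.17 and 0.07. In the third, 615 bp apart, DF126467.1:21101-21232 (minus) had 1012, 2235 and 1243 CPM in the disruptant and 660.1, 577 and 944 CPM in the control libraries, while DF126467.1:21649-21920 (plus) had 976, 497 and 714 CPM in the disruptant and 728, 821 and 362 CPM in the control libraries. Neither side was called (edgeR adjusted p = 0.0896 and 0.863). Both sides were called in 2 of the 18 pairs, those given above. The minus-strand cluster DF126492.1:138768-139001 is counted with 2 partners.

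**Figure D5:**
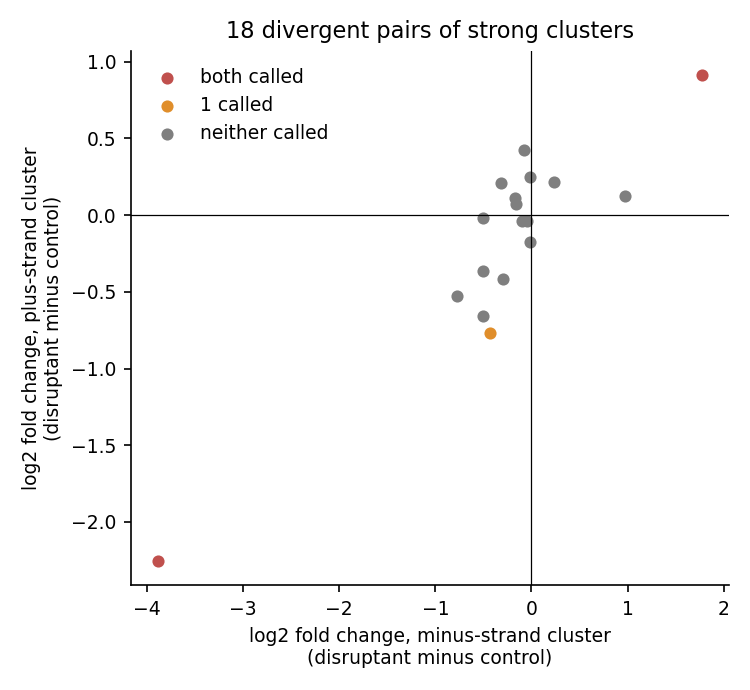
Log2 fold change (disruptant minus control) of the plus-strand cluster against that of the minus-strand cluster for the 18 divergent pairs of strong clusters. Most points lie within 1 of 0 on both axes; the pair that fell on both sides and the pair that rose on both sides stand apart.

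The start positions used within the strong clusters mostly had the same main base in both genotypes. The main start was the same base in all 6 libraries for 343 of 510 clusters whose libraries each had 100 tags or more, and lay within 5 bp for 398. It was one base in all disruptant libraries and another in all controls for 2 clusters, at position 4861 in the disruptant and 4855 in the control in DF126456.1:4824-4887 (plus), and at 73320 in the disruptant and 73311 in the control in DF126482.1:73238-73380 (minus). Neither had a called shift (limma adjusted p = 0.888 and 0.855). A change of position was tested on the log2 ratio of tags upstream to downstream of the pooled median position. Of 511 strong clusters tested, 1 was called (0.196%, beside 0.0407% of all clusters tested; limma, adjusted p under 0.05). Its starts lay farther upstream in the disruptant, a direction called in 0.0305% of all. At an unadjusted p under 0.05 there were 51 (9.98%, beside 7.63% of all).

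The called cluster was DF126486.1:71954-72156 (minus), one of those with the largest falls. Upstream of the median position it had 58.8, 59.4 and 58.3% of its tags in disruptants 1, 2 and 3, with 95% Wilson intervals from 51.9 to 65.9% in all, from 311, 207 and 235 tags in the cluster. In controls 1, 2 and 3 the share was 42.4, 40.8 and 44.2%. The shift was 0.95 on the log2 scale (SE 0.13; limma adjusted p = 0.0210), and the genotypes did not overlap. The main start, position 72125, was the same in all 6 libraries. The call is lost without disruptant 2 (limma adjusted p = 0.0992), disruptant 3 (0.236), control 1 (0.271) or control 2 (0.213), all limma adjusted p, and edgeR's diffSpliceDGE did not call it (adjusted p = 0.999). The cluster with the next smallest p, DF126465.1:135978-136148 (plus), had 38.4, 46.9 and 44.4% upstream in the disruptant and 58.9, 58.5 and 61.8% in the control libraries (limma adjusted p = 0.0555, not called).

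Spread within a genotype was wide for some strong clusters. The highest library exceeded the lowest by a median of 1.38 times in the disruptant and 1.47 times in the control, and by 3 times or more in 11 clusters in the disruptant and 24 in the control. The examples that follow were chosen after their values were seen. Cluster DF126448.1:257099-257270 (plus) had 981, 897 and 1048 CPM in the disruptant and 844, 134 and 548 CPM in the control libraries, with control 2 low. The reverse held in DF126458.1:449500-449564 (minus), where control 2 was high: it had 262, 92 and 135 CPM in the disruptant and 320.2, 1512 and 283 CPM in the controls (log2 fold change -2.19, SE 0.68; edgeR adjusted p = 0.0854, not called). In DF126483.1:92004-92119 (plus), ranked 15 by pooled level, disruptant 1 and controls 1 and 2 were high and the other libraries low, at 5888, 2311 and 2915 CPM in the disruptant and 4419, 6907 and 1549.8 CPM in the control libraries.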

How the data were processed

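The authors deposited raw CAGE tag counts per start position and strand for 6 libraries, per the file headers, with no scaling. FastQC, BWA and bedtools are named in the submitters' processing notes without roles; the genome build, the trimming and the handling of tags with several matches are not given in the sources used here. Positions are printed counted from 1. The smallest minus-strand position in the file is 30 and the smallest plus-strand one 0, counted from 0. These values do not tell whether both strands follow the same convention, which the sources used here do not state.

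Scaffolds whose names start with DF were used, without DF126582.1. Members and lists were chosen with earlier results of these data known. Cluster counts were tested with edgeR 4.0.16 in R 4.3.3 (TMM factors on the column totals, filterByExpr, robust quasi-likelihood fit, Benjamini-Hochberg adjustment over 24644 clusters, calls under 0.05). The SE comes from the estimate and its F value. Start positions were tested with limma 3.58.1 (0.5 added to each side, at least 10 tags in every library). Scripts were tested on simulated data. DESeq2 1.42.0 was an alternative. Tags carry no molecular identifiers, so intervals cover counting error only. Named are the 10 strongest clusters, up to 6 called rises and 6 called falls without overlap, the 3 narrowest and 3 widest (ties by level), called shifts, the 3 clusters on either side of 300 CPM and the 3 closest divergent pairs; others are named where a statement singles them out. Same-numbered libraries were not paired: their deviations correlated at 0.42, -0.39 and -0.06. No sequence was used, since no genome of these scaffolds was at hand.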

Additional observations from a re-analysis of the deposited data

Results flagged for a closer look

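Tags on the opposite strand in the 500 bp upstream of the strong clusters lay outside the comparisons above, and were higher in every disruptant library than in every control. Their median, as a percent of the cluster's own tags, was 0.230, 0.269 and 0.225% in disruptants 1, 2 and 3 and 0.170, 0.170 and 0.177% in controls 1, 2 and 3, with means of 0.241% in the disruptant and 0.172% in the control. Over the 240 strong clusters with no divergent cluster of 1 CPM within 1000 bp, it was 0.0648, 0.0610 and 0.0540% in the disruptant and 0.0436, 0.0474 and 0.0397% in the control libraries. Weaker clusters showed the same order, with 3.38, 3.73 and 3.33% in the disruptant and 3.04, 2.77 and 2.80% in the control libraries. Summed over the strong clusters, the tags overlapped at 3.76, 4.33 and 3.42% in the disruptant and 3.87, 3.82 and 4.26% in the control libraries. Over all scaffolds every disruptant library was shallower than every control, with 17.3, 14.8 and 15.3 M tags in the disruptant and 19.2, 19.3 and 18 M in the control libraries, while tags on the scaffolds used overlapped. The part of depth in this difference was not tested.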

How the results depend on the processing

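The 42 called strong clusters (1971 of all clusters) became 22 (1159) with the replicate block, 67 (2338) without disruptant 2 and control 3 and 69 (3463) with the DF126582.1 share as a covariate, the last 2 settings added after seeing the data. All clusters called numbered 1238 with at least 10 tags in every library and 1252 with positions of at least 0.5 CPM. Leaving out each library gave 18 to 54 strong clusters and 805 to 2751 clusters. The labels do not say whether same-numbered libraries belong together, and each setting's cause was not tested. Other settings stayed within 1.5 times: DESeq2 called 60 strong clusters of 2815. Over all settings, values were followed for 13 called clusters, the largest rises and falls and DF126487.1:79688-80155, not for the others named above. These 13 never turned round over 232 recomputed values, and lost their call in 8. Among these losses, with the replicate block, were DF126538.1:11782-11846 (edgeR adjusted p = 0.0694) and DF126487.1:79688-80155 (0.0598). Both DF126461.1 clusters had no value with at least 10 tags in every library.

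Shifted start positions, 1 strong cluster of 8, were 0 of 3 with the replicate block, 0 of 0 with diffSpliceDGE (10 strong clusters and 485 in all at an unadjusted p under 0.05), 1 of 5 with at least 50 tags, 2 of 16 with a pseudocount of 5 and 6 of 26 without disruptant 2 and control 3. With a level of at least 200 CPM there were 2. Leaving out each library gave 0 to 3 strong clusters, of 0 to 14 in all; where limma called 0 strong clusters, 27 to 55 had an unadjusted p under 0.05. The share difference of -0.933 points ranged from -1.32 to -0.442 with a library left out and was -0.283 as a share of all tags. The median span was 36 bp for 80% and 55 bp for 90% of tags.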

Other observations

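In 27 strong clusters the main start of at least 1 library lay more than 50 bp from that of another. The examples were chosen after their values were seen. In DF126501.1:64061-64422 (minus) it lay at position 64149 in disruptant 2 and control 3 and at 64365 in the other 4 libraries. Cluster DF126455.1:812672-813485 (minus) split in the same way, with 813332 in disruptant 2 and control 3 and 813051 in the other 4. A single library parted in DF126490.1:14709-15075 (minus), where control 1 had its main start at 14851 and the other 5 libraries theirs at 14788. Neither genotype was set apart by the main start in these clusters.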
